A study of Mus musculus with 24 samples.

Results

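The 41 genes described here encode collagen chains, the subunits of the triple-helical proteins that make up most of the extracellular matrix. They were measured in embryoid bodies (EBs), the clumps in which embryonic stem cells differentiate, grown from the mouse line 46C. The members were taken by symbol: a gene counted where the array's annotation assigned a probe set to that symbol and no other, and each of the 41 had exactly 1 such probe set, out of 19938 genes named in the same way. By class, 11 members are fibrillar chains, 6 are type IV chains of basement membranes and 24 belong to other types. The rule itself uses names and no measured value, although the family was picked with earlier results of these arrays known.

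The cultures were either untreated or exposed between days 3 and 8 to both FK506 at 100 ng/ml and cyclosporin A at 1 ug/ml, called treated below. Each of these immunosuppressants inhibits calcineurin, the phosphatase through which calcium signals reach NFAT transcription factors, and because they were given together their separate effects cannot be told apart. RNA was taken at days 4, 6, 8 and 12, with 3 arrays in each of the 8 groups, from 3 independent experiments per the series' design text. All groups went through the same culture changes, with low attachment dishes from day 3, tissue culture dishes from day 7 and serum-free medium from day 8, so that day 12 lies after both the drugs and the serum were withdrawn. The labels name 1 cell line and no vehicle control, and EBs hold several cell types at once. Levels are the deposited log2 signals, differences are log2 treated minus untreated unless stated, and a gene is called, or said to have risen or fallen, where the adjusted p of limma's moderated test over all 19938 genes was under 0.05.

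Most collagens are secreted as procollagen trimers, a few are transmembrane proteins, and their fate depends on the class. Fibrillar chains, among them those of types I, II, III and V, assemble into the banded fibrils of connective tissue and cartilage, with type V chains controlling fibril diameter. Type IV chains instead form the flat network of basement membranes, which EBs lay down beneath their outer endoderm layer. Type VI chains build beaded filaments around cells, and the fibril-associated collagens, such as types XII and XIV, decorate fibril surfaces. Type I and III collagen are classic products of mesenchymal cells and fibroblasts, and type II is best known from cartilage and notochord and is also made transiently in embryonic neuroepithelium.

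The type IV genes lie in head-to-head pairs, which is why the stretch between the starts of Col4a2 and Col4a1 is printed first. By 1 listed RefSeq start site for each gene (GRCm38.p6), Col4a1 and Col4a2 start 21 bases apart on chromosome 8, Col4a3 and Col4a4 72 bases apart on chromosome 1, and Col4a5 and Col4a6 1343 bases apart on the X chromosome. The promoters of Col1a2 and Col3a1 are shown because these fibrillar genes gave some of the largest differences below, and those of Col4a6 and Col4a5 because this pair differed with the drugs at day 12. Each sequence reads 5' to 3' on the strand given. The first stretch runs from one listed start site to the other and lies inside the annotated span of both genes, and the other 4 end before the listed start site of their gene. Capitals mark matches, on either strand, to 4 motifs: CCAAT (the CCAAT box), GGGCGG (the Sp1 core), GGAAA (the NFAT core) and TATAAA (the TATA box).
Col4a2 to Col4a1 (chr8:11312805-11312826, plus strand): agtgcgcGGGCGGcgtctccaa
Col1a2 (chr6:4505368-4505617, plus strand): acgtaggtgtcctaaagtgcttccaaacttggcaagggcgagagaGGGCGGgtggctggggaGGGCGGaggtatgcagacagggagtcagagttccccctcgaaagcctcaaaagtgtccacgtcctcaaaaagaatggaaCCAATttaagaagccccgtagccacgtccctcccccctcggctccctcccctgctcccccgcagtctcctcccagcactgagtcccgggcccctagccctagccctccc
Col3a1 (chr1:45311288-45311537, plus strand): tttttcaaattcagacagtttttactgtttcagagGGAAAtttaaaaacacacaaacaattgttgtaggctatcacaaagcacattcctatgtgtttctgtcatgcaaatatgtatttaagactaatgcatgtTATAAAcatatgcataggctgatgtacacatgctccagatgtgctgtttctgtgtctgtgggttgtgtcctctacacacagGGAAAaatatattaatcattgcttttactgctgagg
Col4a6 (chrX:141474096-141474326, minus strand): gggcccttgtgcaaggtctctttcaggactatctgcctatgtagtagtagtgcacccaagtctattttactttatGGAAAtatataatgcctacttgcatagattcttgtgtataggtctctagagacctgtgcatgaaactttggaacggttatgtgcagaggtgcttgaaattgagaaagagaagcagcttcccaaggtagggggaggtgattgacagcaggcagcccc
Col4a5 (chrX:141475169-141475369, plus strand): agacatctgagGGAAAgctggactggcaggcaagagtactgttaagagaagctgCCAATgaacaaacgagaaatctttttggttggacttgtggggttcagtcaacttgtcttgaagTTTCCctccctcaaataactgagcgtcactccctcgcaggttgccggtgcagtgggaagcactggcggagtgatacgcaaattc

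Of the 41 members, 32 had a RefSeq promoter entry, with 35 windows of the 250 bases before a start. The Sp1 core was present in 54.3% of these windows against 32.7% of all 32817 windows, the CCAAT box in 34.3% against 33.8%, the NFAT core in 45.7% against 55.6%, and the TATA box in 14.3% against 12.4%. Motif matches of this length are frequent everywhere and describe letters, not binding. In the promoters shown, Col1a2 had 2 Sp1 cores and 1 CCAAT box, whereas Col3a1 had none of either and carried 1 TATA box and 2 NFAT cores. Col6a1 and Col6a3, which also rose with the drugs at day 12, had no match to any of the 4.

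The arrays were alike in overall level, with medians between 7.80 and 7.88. Over all genes, limma called 0.00502% at day 4 in the comparison of treated with untreated EBs, 1.84% at day 6, 8.93% at day 8 and 17.9% at day 12. Replicate 2 was the low array for many members in 3 of the 4 later groups. Of the 14 members called higher at day 12, all 14 were lowest in replicate 2 of both the untreated and the treated group at that day, and 11 of the 14 were lowest in replicate 2 of the treated group at day 8. In the untreated day 8 group 4 were lowest in replicate 2 and 9 in replicate 3. Same-numbered arrays deviated together at days 6, 8 and 12, in some pairs weakly. Treated replicate 3 of days 8 and 12 deviated more like an untreated array of another number. A fit with the replicate number as a block is therefore given where it changes a result.

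**Figure D1:**
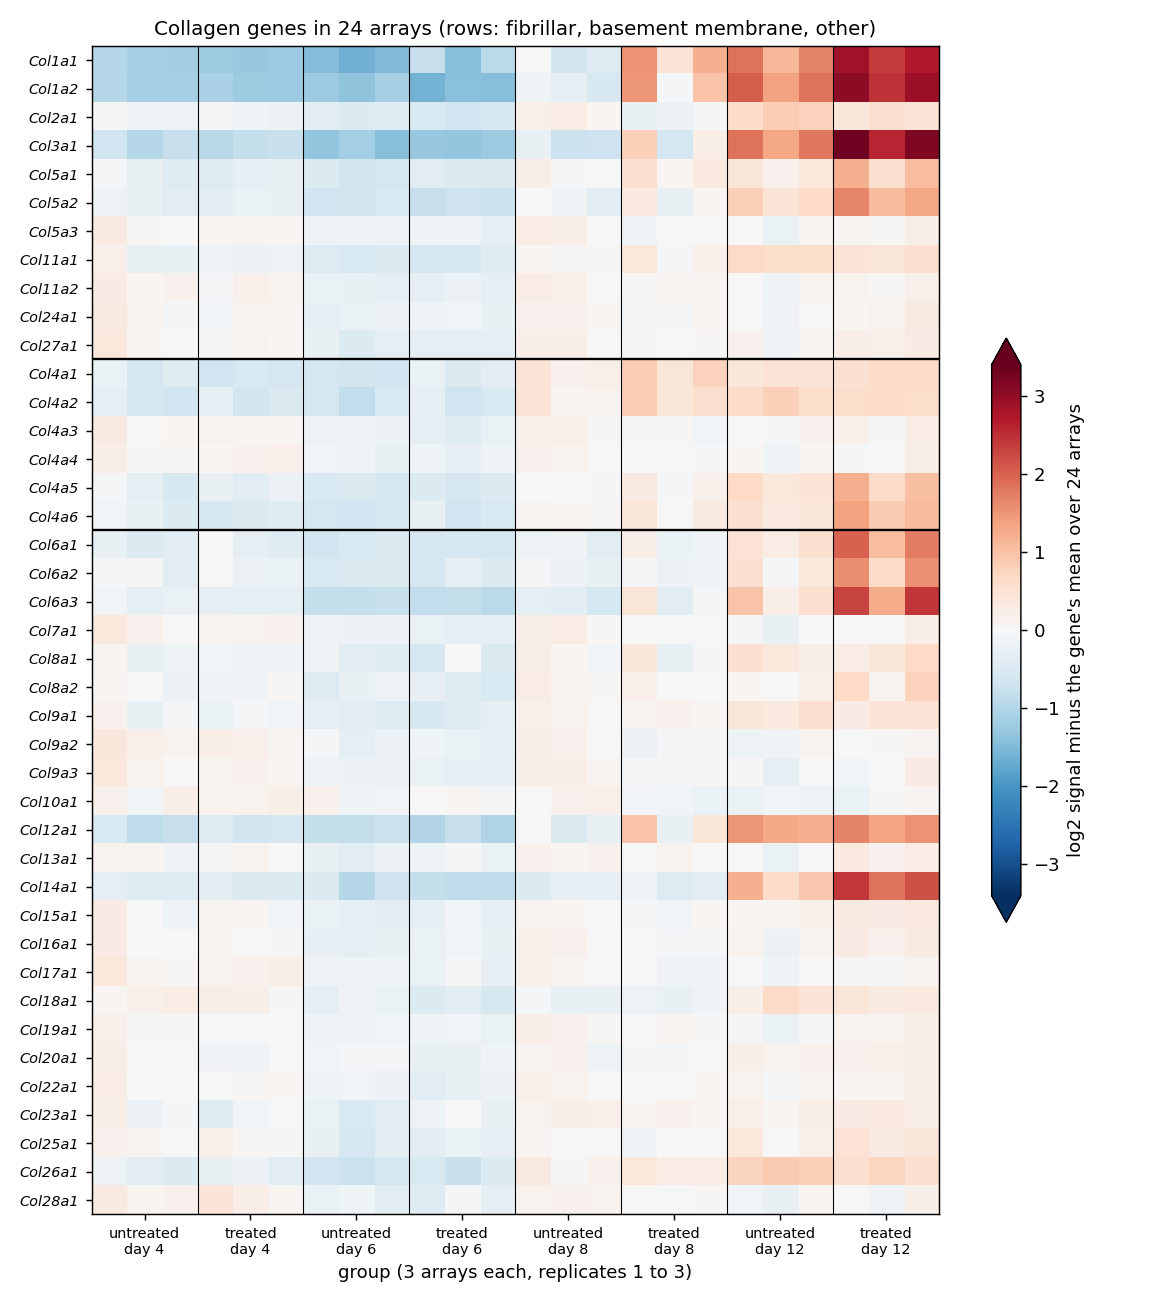
Log2 signal of each of the 41 collagen genes in each of the 24 arrays, as the difference from that gene's mean over all arrays (colour scale, red above and blue below the mean). Rows are grouped as fibrillar, basement membrane and other collagens, columns by day and treatment with 3 arrays each. The day 6 groups hold the lowest group mean of 40 of the 41 genes, and the treated day 12 group holds the highest mean of 24. The same counts were not made over all genes, whose median difference from day 4 to day 6 was -0.04 untreated and -0.07 treated.

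In untreated EBs most collagen genes dipped at day 6 and then climbed, with the chains of types I and III climbing furthest. From day 4 to day 6, 26 of the 41 members fell and 0 rose, where limma called 20.9% of all genes lower and 21.1% higher. The members' median difference was -0.32, against -0.04 for all genes. In 34 members all 3 day 6 arrays lay below all 3 day 4 arrays, a pattern found in 30.8% of all genes. The fall was shallow for each gene, from -0.58 for Col6a3 to -0.07 for Col12a1, which encodes a fibril-associated chain and did not pass the test. Without replicate 1 of the untreated day 4 group, which was high for many members, 13 fell.

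A shift that depended on signal level ran along with this dip and was measured over all genes. Between days 4 and 6 the median of all genes was -0.20 in band 3 of 10 equal bands of mean level, and it was 0.17 in band 7, while the members, which sat in bands 3 to 8, had medians between -0.39 and -0.30 in each of these. With the shift removed by centring each array within 20 bands of mean level, a setting chosen after seeing the data, 19 members fell. In that setting 16.6% of all genes fell. In bulk samples such as these, fewer cells of a type and less RNA per cell cannot be told apart.

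**Figure D2:**
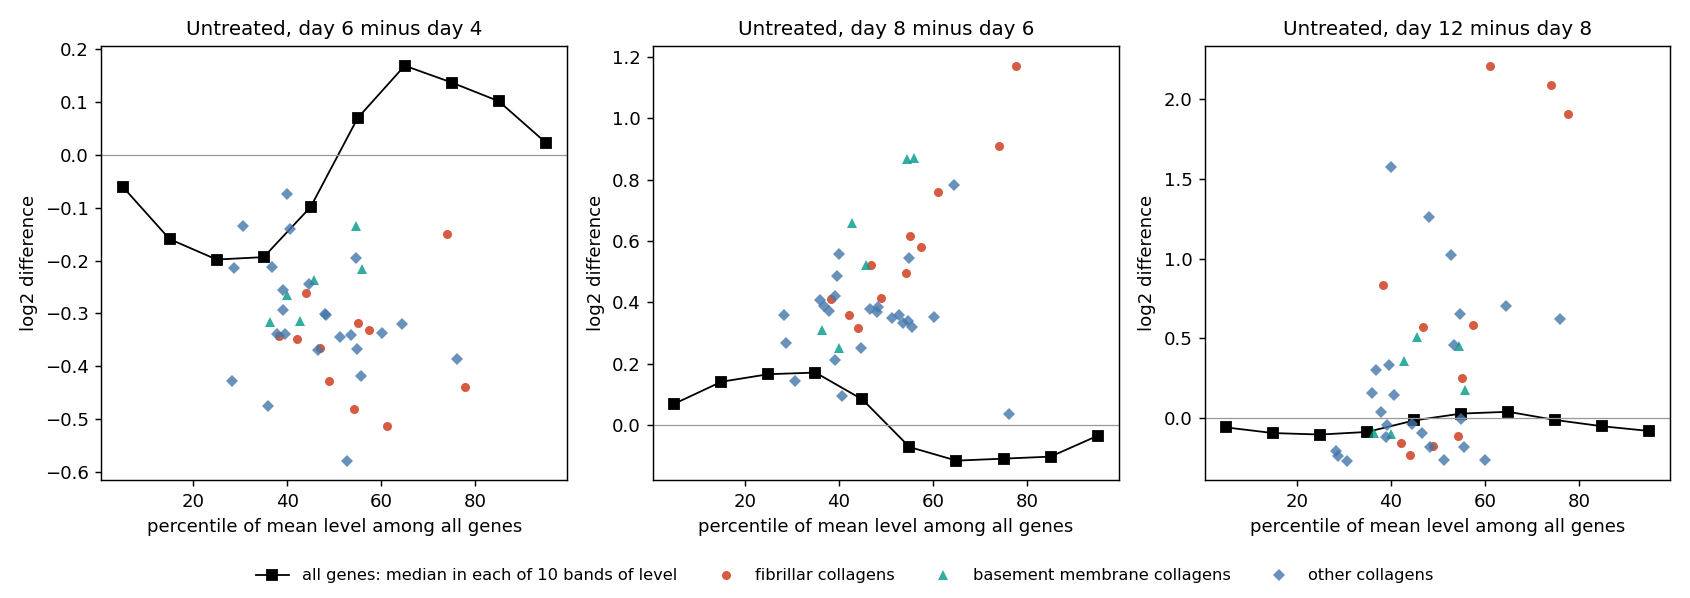
Log2 difference between neighbouring days in untreated EBs (vertical axis, a scale of its own in each panel) against the percentile of a gene's mean level among 19938 genes (horizontal axis). Black squares are the median of all genes in each of 10 equal bands of mean level and coloured points are the 41 collagen genes by class. Most collagens lie below the black line from day 4 to day 6 and above it from day 6 to day 8. In the step to day 12 a few fibrillar and other chains leave the rest, up to 2.21 for Col3a1.

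From day 6 to day 8, 34 of the 41 members rose and 0 fell, where limma called 17.8% of all genes higher and 18.3% lower. All 11 fibrillar and all 6 type IV genes were among them, with 17 of the 24 others. The largest steps were those of Col1a1 and Col1a2, the chains of type I collagen, by 1.17 (SE 0.22) and 0.91 (SE 0.24), and of Col4a1 and Col4a2, the common basement membrane pair, by 0.87 (SE 0.10) and 0.87 (SE 0.13). Col26a1 rose by 0.78 (SE 0.09). The 7 genes without a call were Col6a1, Col6a2, Col6a3, Col8a1, Col10a1, Col18a1 and Col20a1, with differences from 0.04 to 0.39. The level-dependent shift ran the other way here, with all-gene medians of 0.17 in band 4 and -0.12 in band 7. After centring within level bands 25 members rose, where 14.2% of all genes did.

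From day 8 to day 12 each class held members that rose and members that did not. In this step 17 members rose and 5 fell, where 18.8% of all genes rose and 19.9% fell. With each array centred on its median 15 members rose and 10 fell, where 15.5% of all genes rose and 33.9% fell. The type III chain Col3a1 rose by 2.21 (SE 0.23), Col1a2 by 2.09 (SE 0.24) and Col1a1 by 1.91 (SE 0.22). They were followed by the fibril-associated chains Col12a1, by 1.58 (SE 0.19), and Col14a1, by 1.26 (SE 0.13), and by Col6a3, the large type VI chain, by 1.02 (SE 0.22). The 5 that fell were Col5a3, Col7a1 (the anchoring fibril chain beneath epithelia), Col9a3, Col10a1 (the chain of hypertrophic cartilage) and Col19a1, by 0.23 to 0.27. With 1 array left out, 4 of these 5 calls were lost, with adjusted p up to 0.247 for Col5a3, 0.254 for Col9a3 and 0.113 for Col7a1 (all without untreated day 12 replicate 2) and 0.0795 for Col10a1 (without untreated day 12 replicate 1). Other arrays of days 8 and 12 ended some of these calls too. Among the type IV genes Col4a2, Col4a5 and Col4a6 rose, by 0.45, 0.51 and 0.36, while Col4a1 differed by 0.18 and was not called.

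Treated EBs, measured on other arrays, also had many members lower at day 6 and many higher at day 8, and at day 12 their course differed from the untreated one for the 5 members given below with the interaction test. From day 4 to day 6, 24 members fell and 0 rose (25.1% of all genes fell and 19.1% rose), and 22 of these were among the 26 that fell untreated. From day 6 to day 8, 28 rose and 0 fell (16.8% of all genes rose and 24.7% fell), and 25 of these were among the 34 that rose untreated. From day 8 to day 12, 24 rose and 0 fell (16.5% of all genes rose and 16.7% fell), and 16 of these were among the 17 that rose untreated. The steps of the treated course to day 12 were led by Col3a1 with 2.88 (SE 0.23), Col14a1 with 2.46 (SE 0.13) and Col1a2 with 2.01 (SE 0.24).

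Treated and untreated EBs were compared at each day to see which collagens differed with the drug treatment. At day 4, a day after the drugs were added, limma called 0 of the 41 members and 0 had an unadjusted p under 0.05. The differences ran from -0.20 for Col4a6 to 0.18 for Col12a1. At day 6 limma again called 0 members, against 1.26% of all genes higher and 0.577% lower, and 4 had an unadjusted p under 0.05. The largest difference was that of Col1a1, whose 3 untreated arrays read 8.53, 8.37 and 8.51 and whose 3 treated arrays read 9.21, 8.55 and 9.08. Each treated array lay above each untreated one, by a mean of 0.47 (SE 0.22, adjusted p = 0.388), and with the replicate number as a block Col1a1 was called (adjusted p = 0.0217). Its partner Col1a2 differed by -0.24 (adjusted p = 0.801) at the same day.

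At day 8, the last day of drug exposure, both chains of type I collagen were clearly higher in treated EBs and a few other chains differed by less. Over all members, 3 rose and 1 fell, where 4.86% of all genes rose and 4.08% fell, so the share of members called was near that of all genes. The members' median was -0.06, against -0.04 over all genes. Col1a1 read 10.004, 9.36 and 9.56 in the untreated arrays and 11.51, 10.44 and 11.20 in the treated ones, with no overlap. The difference was 1.41 (SE 0.22, adjusted p = 0.00105), a 2.65-fold rise in signal. Col1a2 read 9.63, 9.45 and 9.22 untreated and 11.23, 9.73 and 10.74 treated, again without overlap although the second treated array came close. It rose by 1.14 (SE 0.24, adjusted p = 0.00557), and without replicate 1 of the treated day 8 group its adjusted p was 0.0637.

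Of the type IV pair Col4a1 and Col4a2, Col4a1 rose and Col4a2 did not pass the test. Col4a1 read 9.08, 8.80 and 8.81 untreated and 9.51, 9.07 and 9.42 treated, so the lowest treated array lay just below the highest untreated one. The difference was 0.44 (SE 0.10, adjusted p = 0.0119). Col4a2 read 9.03, 8.63 and 8.68 untreated and 9.41, 8.95 and 9.10 treated, a difference of 0.37 (SE 0.13, adjusted p = 0.0653) that was 0.38, 0.32 and 0.42 between same-numbered arrays. The call of Col4a1 did not hold when 1 of 4 arrays was left out in turn (untreated replicates 2 and 3, treated replicates 1 and 3), the highest adjusted p being 0.121.

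Col2a1, the chain of cartilage-type collagen II, went the other way at day 8. Its untreated arrays read 8.90, 9.001 and 8.79 and its treated arrays 8.48, 8.55 and 8.68, so that every treated array lay below every untreated one. It fell by 0.33 (SE 0.08, adjusted p = 0.0126), and the adjusted p was 0.104 without untreated replicate 2 and 0.108 without treated replicate 1. Of the cartilage markers, which include Sox9 and Sox5, 1 of 9 rose and 1 of 9 fell at this day. The mean log2 level of that list lay between 7.64 and 8.03 in the untreated arrays and between 7.72 and 8.11 in the treated ones, and its part in the Col2a1 difference was not tested. Without untreated replicate 2 or treated replicate 1 or 3, 0 of the 9 were called.

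When only the 6 arrays of day 8 entered the fit, none of the 4 calls passed, with adjusted p of 0.11 for Col1a1, 0.165 for Col1a2, 0.144 for Col2a1 and 0.17 for Col4a1. With the replicate number as a block, 7 members rose at day 8 and 1 fell, where 6.95% of all genes rose and 7.2% fell. The 4 additional genes were Col12a1 (adjusted p = 0.00147), Col4a2 (0.00197), Col3a1 (0.00313) and Col6a3 (0.0432). Col12a1 read 7.63, 7.13 and 7.36 untreated and 8.57, 7.35 and 8.02 treated, a mean difference of 0.61 (SE 0.19, adjusted p = 0.0501 without the block). Col3a1 read 8.71, 8.25 and 8.27 untreated and 9.77, 8.36 and 9.18 treated, a mean difference of 0.70 (SE 0.23, adjusted p = 0.0635). For Col3a1 and Col12a1 the second treated array fell among the untreated ones, and the same-numbered difference was smallest in that pair, 0.12 for Col3a1 and 0.22 for Col12a1. Without replicate 2 of the treated day 8 group 8 members were called, and without replicate 1 of it 1 member was called.

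**Figure D3:**
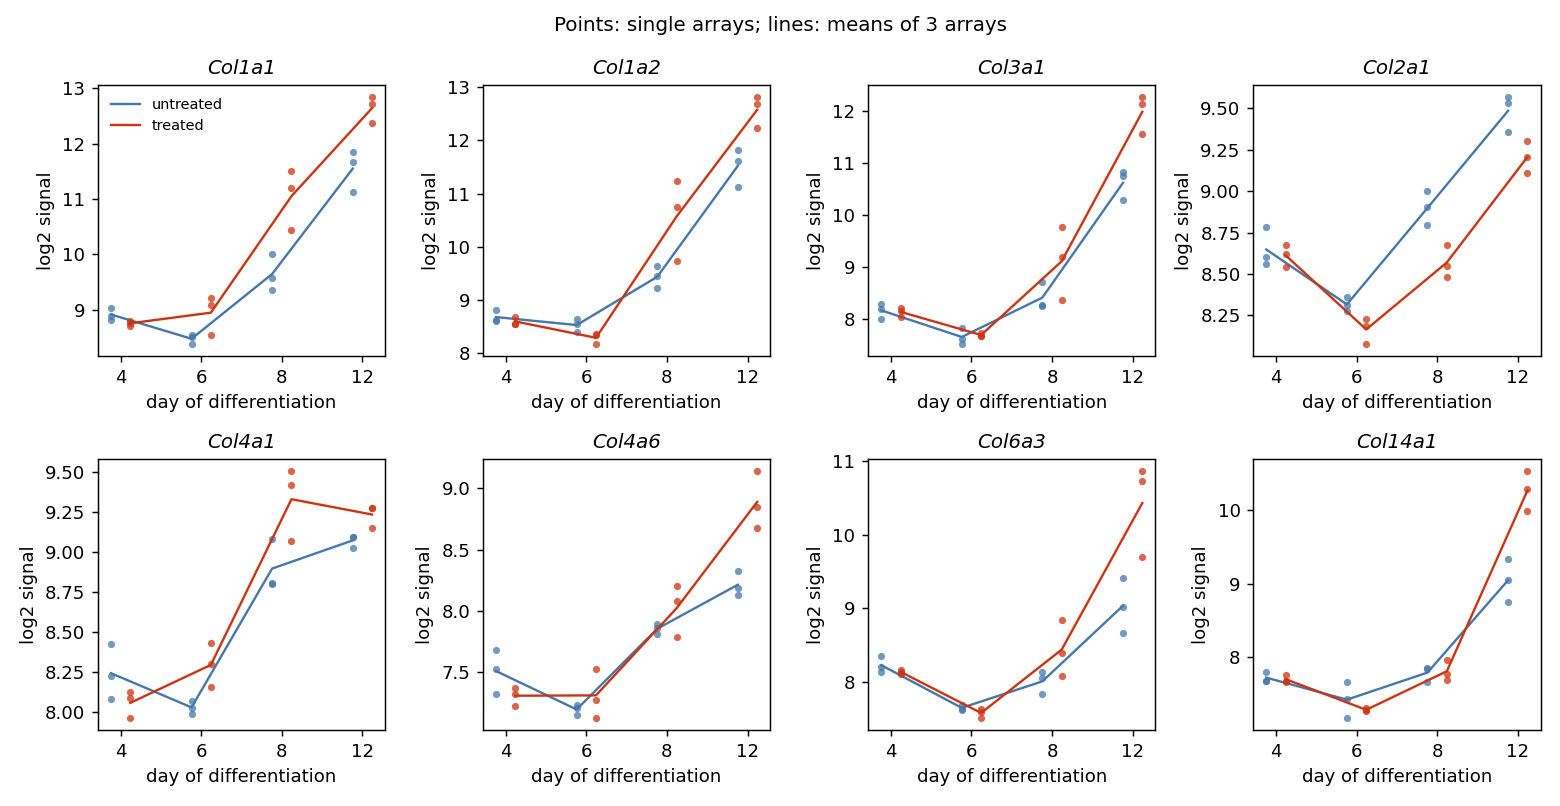
Log2 signal (vertical axis, a scale of its own in each panel) over the days of differentiation for 8 collagen genes. Points are single arrays and lines join the means of 3 arrays, untreated in blue and treated in red. Col1a1 and Col1a2 separate at day 8, Col6a3 and Col14a1 at day 12, and Col2a1 is lower in the treated arrays at both days. Treated replicate 2 is the low red point at day 8 in Col1a1, Col1a2 and Col3a1.

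At day 12, days after the drugs were withdrawn, 14 members were higher in treated EBs and 1 was lower. Over all genes 7.49% rose and 10.4% fell, so the members' share was above the background on the higher side and below it on the lower. The members' median was 0.17 against 0.02 over all genes. A difference above 0 was found in 35 of the 41, a count not made over all genes. In 17 members every treated array was higher than every untreated one (15.4% of all genes), and in 3 every treated array was lower (17.1%). By class, 5 of 11 fibrillar genes rose and 1 fell, 2 of 6 type IV genes rose, and 7 of the 24 others rose.

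Among the major fibrillar chains, Col3a1 differed most. It read 10.82, 10.28 and 10.75 untreated and 12.27, 11.56 and 12.13 treated, which did not overlap, and it rose by 1.37 (SE 0.23, adjusted p = 0.000261), or 2.58-fold. Col1a1 read 11.85, 11.13 and 11.67 untreated and 12.84, 12.37 and 12.72 treated, a rise of 1.09 (SE 0.22, adjusted p = 0.00131). Col1a2 read 11.82, 11.13 and 11.62 untreated and 12.81, 12.24 and 12.68 treated, a rise of 1.05 (SE 0.24, adjusted p = 0.00348). The second array was the low one in both groups, and between same-numbered arrays the difference of Col1a2 was 0.99, 1.11 and 1.06. The type I chains alone were called higher at both day 8 and day 12 in the fit without the block.

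The type V chains Col5a1 and Col5a2, which join type I collagen in mixed fibrils, also rose. Col5a2 read 8.32, 7.99 and 8.18 untreated and 9.17, 8.60 and 8.84 treated, a rise of 0.71 (SE 0.13, adjusted p = 0.000691) without overlap. Col5a1 read 8.99, 8.73 and 8.93 untreated and 9.79, 9.13 and 9.62 treated, a rise of 0.63 (SE 0.14, adjusted p = 0.0024). The third type V chain, Col5a3, differed by 0.17 (adjusted p = 0.218). The remaining minor fibrillar genes, Col11a1, Col11a2, Col24a1 and Col27a1, differed by -0.15 to 0.19 and were not called.

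Col2a1 was the 1 member that fell at day 12. It read 9.36, 9.56 and 9.53 untreated and 9.11, 9.30 and 9.20 treated, with all treated arrays below all untreated ones. The difference was -0.28 (SE 0.08, adjusted p = 0.0172), and it lay between -0.33 and -0.25 in the 3 same-numbered pairs. The call was lost with level-band centring (adjusted p = 0.0551) and without untreated replicate 2 or 3 or treated replicate 1 or 3, up to an adjusted p of 0.0976. Sox9, named here after its value was seen, is a transcription factor of cartilage and of neural progenitors that activates Col2a1 in cartilage. It fell by 1.07 at the same day, while 1 of the 9 cartilage markers rose. The mean log2 level of the cartilage list lay between 8.00 and 8.10 untreated and between 8.09 and 8.22 treated. Neural lists fell, with 5 of 6 neural progenitor markers and 6 of 6 neuron markers lower. The part of Sox9 and of these lists in the Col2a1 difference was not tested.

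All 3 type VI genes among the members, whose chains join into 1 heterotrimer, rose at day 12. Col6a3 read 9.42, 8.67 and 9.02 untreated and 10.73, 9.69 and 10.86 treated, a rise of 1.39 (SE 0.22, adjusted p = 0.000115). Col6a1 read 9.06, 8.82 and 9.10 untreated and 10.56, 9.60 and 10.29 treated, a rise of 1.16 (SE 0.16, adjusted p = 3.65e-05). Col6a2 read 9.06, 8.44 and 8.84 untreated and 10.08, 9.12 and 10.04 treated, a rise of 0.97 (SE 0.18, adjusted p = 0.00059). None of these overlapped. At day 8 their differences were 0.43, 0.16 and 0.04 in the same order. None of the 3 was called then in the fit without the block, while Col6a3 was called with it.

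Col14a1, a fibril-associated collagen of skin and tendon fibrils, had the smallest p of all members. It read 9.33, 8.76 and 9.06 untreated and 10.54, 9.99 and 10.29 treated. The rise of 1.22 (SE 0.13, adjusted p = 2.5e-06) was the same in every pair, at 1.20, 1.23 and 1.23 between same-numbered arrays. Col12a1, its closest relative in domain make-up, differed by 0.19 (SE 0.19, adjusted p = 0.559) at day 12, when it read 9.12, 8.91 and 8.83 untreated and 9.29, 8.97 and 9.15 treated. Among the other fibril-associated genes Col19a1 rose by 0.25 (SE 0.06, adjusted p = 0.00851), reading 6.92, 6.75 and 6.93 untreated and 7.09, 7.08 and 7.17 treated. Its mean level was low, at percentile 28.75 of all genes, and was not tested against background. Col16a1 differed by 0.24 (adjusted p = 0.063) and was called with the replicate number as a block (adjusted p = 0.0195).

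Within type IV, the pair on the X chromosome was called higher at day 12 and the pair on chromosome 8 was not. Col4a6 read 8.32, 8.13 and 8.19 untreated and 9.14, 8.68 and 8.85 treated, a rise of 0.68 (SE 0.12, adjusted p = 0.000336). Col4a5 read 8.63, 8.32 and 8.43 untreated and 9.20, 8.60 and 8.99 treated, a rise of 0.47 (SE 0.13, adjusted p = 0.0115) in which the second treated array lay just below the highest untreated one. Col4a1 read 9.03, 9.10 and 9.09 untreated and 9.15, 9.28 and 9.28 treated, a difference of 0.16 (SE 0.10, adjusted p = 0.321). Col4a2 read 9.19, 9.35 and 9.16 untreated and 9.15, 9.18 and 9.15 treated, a difference of -0.07 (SE 0.13, adjusted p = 0.738). Col4a3 and Col4a4, the chains of the glomerular network, differed by 0.10 and 0.07.

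The 2 remaining called genes gave small rises. Col8a2, a short-chain collagen of the corneal Descemet membrane, read 7.64, 7.57 and 7.73 untreated and 8.25, 7.69 and 8.34 treated, with overlap, and rose by 0.44 (SE 0.12, adjusted p = 0.0156). Col13a1, a transmembrane collagen of cell junctions, read 8.16, 7.93 and 8.15 untreated and 8.47, 8.30 and 8.40 treated, and rose by 0.31 (SE 0.08, adjusted p = 0.00713). Some of these weaker calls rested on single arrays. Without untreated replicate 2 the adjusted p was 0.0621 for Col13a1, 0.0687 for Col19a1, 0.0681 for Col4a5 and 0.0672 for Col8a2. Without treated replicate 1 it was 0.0985 for Col4a5 and 0.0943 for Col8a2, and without treated replicate 3 it was 0.132 for Col8a2, 0.0544 for Col4a5 and 0.0535 for Col19a1. With only the day 12 arrays in the fit the calls of Col2a1, Col13a1, Col19a1, Col4a5 and Col8a2 were lost as well. The calls of Col1a1, Col1a2, Col3a1, Col5a1, Col5a2, Col4a6, Col6a1, Col6a2, Col6a3 and Col14a1 held under every alternative that was run.

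**Figure D4:**
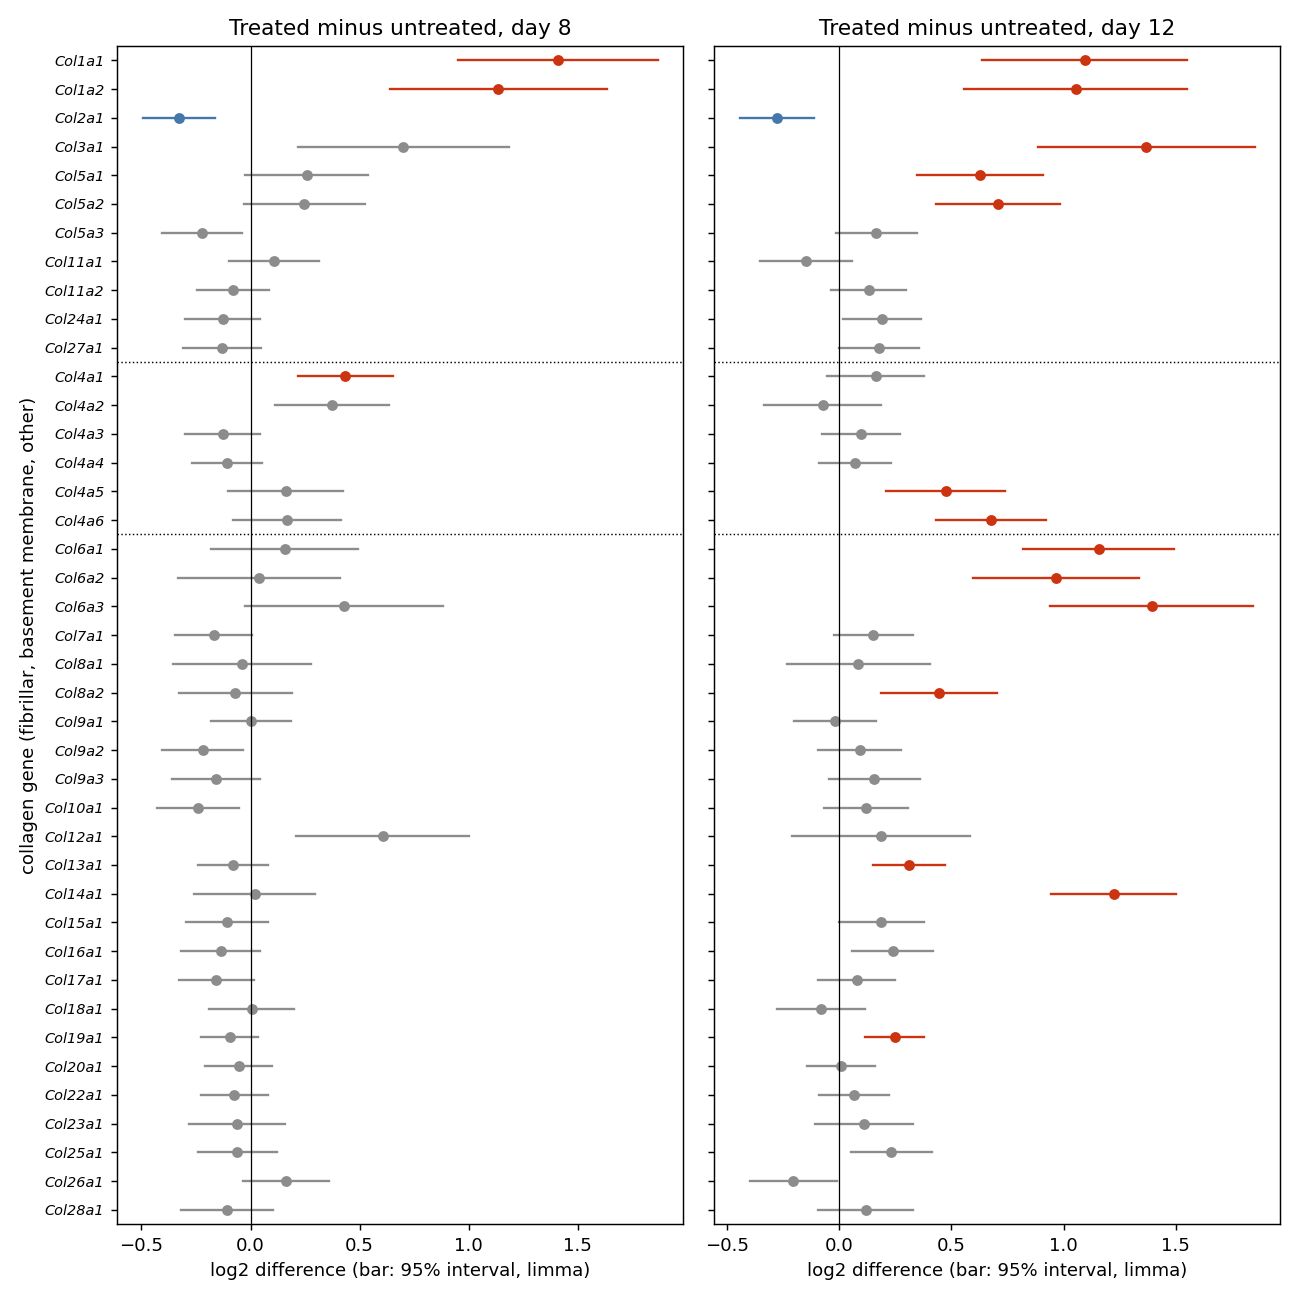
Log2 difference between treated and untreated EBs for the 41 collagen genes at day 8 (left) and day 12 (right). Points are differences of means of 3 arrays with limma's 95% interval, red where called higher, blue where called lower and grey where not called, and dotted lines part the fibrillar, basement membrane and other classes. Between the panels the number of red points goes from 3 to 14, and Col2a1 is the 1 blue point in each.

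The 26 members without a call at day 12 had differences from -0.20 for Col26a1 to 0.24 for Col16a1. Among them were all 3 type IX genes, which coat type II fibrils of cartilage, with -0.02 for Col9a1, 0.09 for Col9a2 and 0.16 for Col9a3. The multiplexins of basement membrane zones, Col15a1 and Col18a1, differed by 0.19 and -0.08. Col7a1, Col10a1, Col17a1, Col20a1, Col22a1, Col23a1, Col25a1 and Col28a1 differed by 0.01 to 0.23. In all, 25 of the 41 members were called at neither day 8 nor day 12.

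Whether the treatment difference itself changed between days was tested with an interaction term. From day 4 to day 6 limma called 0 members (2 at unadjusted p under 0.05), and from day 6 to day 8 it again called 0 (4 at unadjusted p under 0.05). Over all genes the difference grew in 0.0752% and shrank in 0.0201% in the first of these steps, and grew in 0.221% and shrank in 0.181% in the second. With the replicate number as a block, the difference grew from day 6 to day 8 for Col1a2 by 1.38 (adjusted p = 0.00552), Col1a1 by 0.94 (0.00299) and Col12a1 by 0.75 (0.0131). With the block it grew in 1.88% of all genes and shrank in 1.37% in that step. In the fit without the block Col1a2 had an adjusted p of 0.0685. Without replicate 2 of the treated day 8 group 4 members were called in that step, and without replicate 1 of the untreated day 8 group 1 was.

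From day 8 to day 12 the treatment difference grew in 5 members and shrank in 0, where 2.63% of all genes had a larger and 2.57% a smaller difference. Col14a1 grew by 1.20 (SE 0.19, adjusted p = 0.00104), Col6a1 by 1.00 (SE 0.23, adjusted p = 0.014), Col6a2 by 0.93 (SE 0.25, adjusted p = 0.0355), Col13a1 by 0.39 (SE 0.11, adjusted p = 0.0413) and Col19a1 by 0.34 (SE 0.09, adjusted p = 0.0293). The type I chains did not pass, with -0.31 for Col1a1 (SE 0.31, adjusted p = 0.572) and -0.08 for Col1a2 (SE 0.34, adjusted p = 0.916). With the block the difference grew in 5.13% of all genes and shrank in 4.75%. Among the members it grew in 11 and shrank in 2, the latter near the share over all genes. Those added were Col3a1, Col4a6, Col5a2, Col5a3, Col6a3 and Col16a1, by 0.38 to 0.96, and the 2 that shrank were Col4a2, by -0.45 (adjusted p = 0.00981), and Col26a1, by -0.37 (adjusted p = 0.0353). Of the 5 calls, that of Col14a1 held under every alternative run, and that of Col6a1 was lost when only the compared groups entered the fit (adjusted p = 0.0976). Those of Col13a1 and Col19a1 were lost with level-band centring. Those of Col6a2, Col13a1 and Col19a1 were lost in 8, 9 and 6 of the 12 fits that each left out 1 array, and the count ranged from 2 to 11 when 1 array was left out, the highest without replicate 2 of the treated day 12 group.

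The genes that act on collagens before and after secretion were read from lists of 86 genes in all. In the collagen processing list, which holds the hydroxylases, chaperones, propeptide proteases and crosslinking oxidases, 11 of 27 measured genes rose and 1 fell at day 8, and 15 rose and 0 fell at day 12. The shares over all genes, for these and the lists that follow, were 4.86% higher and 4.08% lower at day 8 and 7.49% and 10.4% at day 12. The list's median was 0.16 at day 8 (all genes -0.04) and 0.35 at day 12 (all genes 0.02). At day 8 the smallest p-values were those of Pcolce, the enhancer of procollagen C-proteinase, with 1.40 (SE 0.24, adjusted p = 0.00156), Bmp1, that proteinase, with 0.91, P4ha3 with 1.27 and P4ha2 with 0.54, both prolyl 4-hydroxylase subunits. At day 12 they were those of Lox, the crosslinking lysyl oxidase, with 1.77 (SE 0.25, adjusted p = 4.49e-05), P3h3, a prolyl 3-hydroxylase, with 0.68, Plod1, a lysyl hydroxylase, with 0.82, and P4ha2 with 0.73. Lox differed by -0.15 at day 8 and was not called. The general collagen chaperone Serpinh1 differed by 0.39 and 0.37 at the 2 days and the prolyl isomerase Ppib by 0.11 and 0.09, with no call for either. With 1 array left out, the number called in this list ranged from 4 (without untreated replicate 2 or treated replicate 1 or 3) to 15 (without treated replicate 2) at day 8, with 6 without untreated replicate 3, and from 9 (without treated replicate 1) to 19 (without treated replicate 2) at day 12.

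Partners of the basement membrane did not move as 1 group. At day 8, 5 of 19 rose and 2 fell (all genes 4.86% and 4.08%), and at day 12, 7 rose and 2 fell (all genes 7.49% and 10.4%), so the number that fell at day 12 was near the share over all genes. The linker protein Nid1, nidogen, rose by 0.84 at day 8 and 0.85 at day 12, its relative Nid2 rose by 0.69 at day 12, and Sparc, a collagen-binding glycoprotein, by 0.44 at day 12. The laminin chain of vessels, Lama4, rose by 1.46 at day 8 and differed by 0.28 at day 12. Lamb1 rose by 0.41 at day 8. Frem2, of the Fraser complex of embryonic epithelia, fell by 0.91 at day 8 and by 1.04 at day 12. With 1 array left out, the number called ranged from 2 (without treated replicate 1) to 13 (without treated replicate 2) at day 8, with 3 without untreated replicate 2 or 3 or treated replicate 3, and from 3 (without treated replicate 1 or 3) to 11 (without treated replicate 2) at day 12.

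Proteins that bind fibrils held the largest single difference among the 5 lists at both day 8 and day 12. At day 6 the only one of 13 called was Fn1, fibronectin, which rose by 0.47. At day 8, 4 of 13 rose and 0 fell: Postn, periostin, by 2.96 (SE 0.50, adjusted p = 0.0016), the small proteoglycan Lum by 2.20 (SE 0.49), Tgfbi by 1.60 and Dcn, decorin, by 1.14. At day 12, 6 rose and 0 fell, led by Fmod, a proteoglycan of fibril assembly, with 2.09 (SE 0.28) and Ogn with 2.12 (SE 0.36), then Aspn with 1.25 and Fn1 with 0.44. Postn and Lum, the largest at day 8, differed by 0.41 and 1.37 at day 12 and were not called. The treatment difference of Postn shrank between these days, by -2.54 (SE 0.71, adjusted p = 0.0384), and that of Lum differed by -0.83 (adjusted p = 0.493). With 1 array left out the number called ranged from 2 (without untreated replicate 2 or treated replicate 1 or 3) to 5 (without treated replicate 2) at day 8, and from 3 (without treated replicate 1) to 9 (without treated replicate 2) at day 12. The call of Fn1 at day 6 was lost without untreated replicate 2 or 3 or treated replicate 1 or 3.

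Of 9 collagen receptors, 3 rose and 0 fell at day 8, namely the integrin chains Itgb1 by 0.46 and Itga1 by 0.56 and the endocytic receptor Mrc2 by 0.59. At day 12, 2 rose, Mrc2 by 0.58 and Itga1 by 0.49, and 1 fell, the epithelial receptor kinase Ddr1, by 0.37. Of 12 genes of collagen turnover, 4 rose and 1 fell at day 8, with the protease inhibitor Reck at 0.73, the proteases Mmp14 at 0.64 and Mmp2 at 0.45, and Timp4 at -0.75. At day 12, 7 rose and 0 fell, with the inhibitor Timp1 at 1.09 (SE 0.11, adjusted p = 1.1e-06) and the proteases Mmp9 at 1.10, Mmp16 at 0.66 and Mmp2 at 0.50. At day 8 neither list had a call without untreated replicate 2 or without treated replicate 1, and without treated replicate 2 the receptors had 4 and the turnover genes 7. Without treated replicate 3 they had 1 and 3. At day 12 the turnover count was 3 without treated replicate 1 or 3 and 4 without untreated replicate 2 or 3, and the receptor count to 1 without treated replicate 1.

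**Figure D5:**
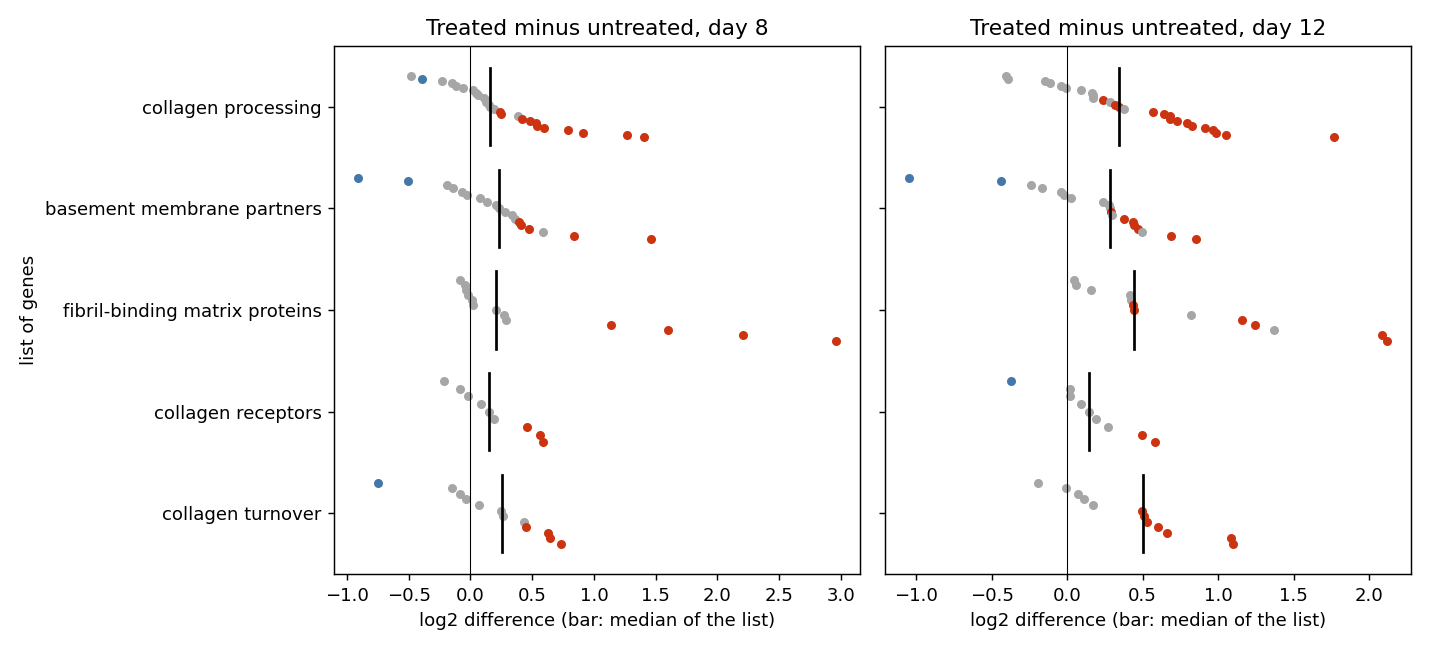
Log2 difference between treated and untreated EBs at day 8 (left) and day 12 (right) for genes that process, bind, sense or degrade collagens. Each point is 1 gene, spread vertically within its list only for legibility, red where called higher, blue where called lower and grey where not called, and the black bar is the median of the list. The points farthest right are Postn at day 8, with 2.96, and Ogn and Fmod at day 12, with 2.12 and 2.09.

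Markers of mesenchyme, primitive endoderm and endothelium were called higher in treated EBs, where limma called 1.26% of all genes higher at day 6, 4.86% at day 8 and 7.49% at day 12. Of 10 mesenchyme markers 3 rose at day 6, 7 at day 8 and 4 at day 12, and 0 fell at any of these days. Their mean log2 level lay between 8.84 and 9.51 in the untreated arrays at day 8 and between 9.58 and 10.31 in the treated ones, and at day 12 between 9.72 and 9.93 and between 10.21 and 10.46, with no overlap at either day. Of 11 primitive endoderm markers 3 rose at day 8 and 5 at day 12, with levels of 8.79 to 9.32 against 9.34 to 9.62 at day 8 and 8.81 to 9.09 against 9.38 to 9.69 at day 12. Of 7 endothelium markers 5 rose at day 8, from 7.64 to 8.72 untreated to 8.48 to 9.58 treated. At day 12, 1 of them rose, too few to read against the share over all genes. The primitive endoderm count at day 8 was 1 without untreated replicate 2 or treated replicate 1. Of 6 smooth muscle markers 1 was called higher at each of these days, too few to read against the share over all genes. That count was 0 at day 8 without untreated replicate 2 or 3 or treated replicate 1 or 3, 3 at either day without treated replicate 2, and 2 at day 12 with the block. With the block 5 mesenchyme markers rose at day 6 and 2 endothelium markers at day 12 (2.1% and 9.51% of all genes higher). The mesenchyme count ranged from 2 (without untreated replicate 2 or treated replicate 1) to 10 (9 higher, 1 lower, without treated replicate 2) at day 8, and was 1 without untreated replicate 2 or treated replicate 1 and 2 without untreated replicate 1 or 3 or treated replicate 3 at day 12. At day 8 it was 3 without treated replicate 3. At day 8, 0 endothelium markers were called without untreated replicate 2 or treated replicate 1, and 1 was without treated replicate 3.

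Neural markers were called lower, where limma called 4.08% of all genes lower at day 8 and 10.4% at day 12. Neural progenitor markers fell in 4 of 6 at day 8 and 5 of 6 at day 12, when their mean level lay between 10.46 and 10.73 untreated and between 9.43 and 10.12 treated. Neuron markers fell in 2 of 6 at day 8 and 6 of 6 at day 12, from 9.82 to 10.31 untreated to 8.52 to 9.13 treated. Of 7 pluripotency markers 1 fell at day 8 and 5 rose at day 12, from 8.37 to 8.69 untreated to 9.15 to 9.46 treated. With the block 4 pluripotency markers fell at day 8, where 7.2% of all genes fell. Without treated replicate 2 the number was 6, while it was 0 without untreated replicate 2 or 3 or treated replicate 1 or 3. At day 12, 3 were called without treated replicate 1 and 4 without any other single array. Of 7 epithelium markers 1 was lower at each day, too few to read against the share over all genes. At day 8 it was 0 without untreated replicate 2 or treated replicate 1 or 3 and 2 without treated replicate 2, and with the block 2 fell and 1 rose at day 8 and 1 fell and 1 rose at day 12. All 6 neuron markers were lower at day 12 whichever array was left out, while at day 8 the neuron and the neural progenitor counts were each 1 without untreated replicate 2 or treated replicate 1 or 3, and the neural progenitor count was 2 without untreated replicate 3. No detection calls came with the arrays, so none of these markers can be said to be absent, and the part of cell makeup in the collagen differences was not tested.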

How the data were processed

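Total RNA of embryoid bodies was measured on 24 Affymetrix Mouse Gene 1.0 ST arrays, 3 in each of 8 groups. The deposited values are log2 signals, as their range shows, made by the authors with RMA in Affymetrix Expression Console per the submitters' processing notes. Software versions and the build of the probe sets are not stated in the sources used. No detection calls were used, so no signal was tested against background. Precision is limited by the number of arrays, and the SE of a treatment difference had a median of 0.092.

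Of 35556 probe sets, 21789 had 1 symbol in the platform's annotation, 1621 several and 12146 none; 21698 symbols were found in the GRCm38.p6 gene table and 0 changed. Where a gene had several probe sets (999 genes), the one with the highest mean was taken, leaving 19938 genes. Fkbp10, Adamts2, Loxl2, Gp6, Mmp15 and Runx2 had no probe set of their own and are not analysed here. No pair of arrays was a copy (smallest SD of a difference 0.121).

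Groups were compared with limma 3.58.1 in R 4.3.3: lmFit with a mean for every group (16 residual degrees of freedom), then eBayes, with p-values adjusted by Benjamini-Hochberg over all genes within each of 13 contrasts, at a threshold of 0.05. The code was tested on simulated data. Other steps used Python 3.11.15 with pandas 2.3.3, numpy 2.4.6, and for plots matplotlib 3.10.9. The collagen genes, their classes and all lists were chosen with earlier results of these data known. Array values are printed for members called in a treatment comparison or with the largest untreated steps of their class; of each partner list up to 4 genes with the smallest p at a day are named, with Serpinh1 and Ppib. Sox9, and the second-day values of other list genes, were picked after their values were seen.

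The labels number the arrays 1 to 3 in each group, from 3 independent experiments, whose spread the p-values measure. Deviations of same-numbered treated and untreated arrays from their group means correlated over genes by 0.30, 0.14 and 0.21 at day 6, by 0.48, 0.55 and 0.11 at day 8, and by 0.12, 0.34 and 0.25 at day 12, but by -0.01, 0.19 and -0.05 at day 4. Correlations over 0.1 in every pair were taken to pair the arrays at days 6, 8 and 12. At days 8 and 12, however, treated replicate 3 correlated most with an untreated array of another number. Calls added by the block rest on this pairing, which no label states. Between untreated arrays of days 8 and 12 the same-number correlations were 0.05, -0.11 and -0.27, so the block across days had no such basis there. Alternatives were a replicate block, quantile normalization, median centring, removal of genes below percentile 40 of mean level, averaging of probe sets, an intensity trend with a robust prior, array weights, fitting the compared groups only, leaving out 1 array and, chosen after seeing the data, centring within 20 bands of mean level.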

Additional observations from a re-analysis of the deposited data

Results flagged for a closer look

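For 5 collagen genes the treatment difference at day 12 differed from that at day 8 by limma's test of the difference itself. The change was 1.20 for Col14a1, 1.00 for Col6a1, 0.93 for Col6a2, 0.39 for Col13a1 and 0.34 for Col19a1, each a larger difference at day 12. Over all genes this change depended on level, with medians of 0.15 in bands 3 and 4 of mean level and -0.08 in band 7. With level-band centring the calls of Col13a1 and Col19a1 were lost. Groups of 3 arrays are too small for a search for single outlying arrays.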

How the results depend on the processing

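Values below count collagen genes called in either direction. In the treatment comparison at day 8, with 4 called, the count was 7 with arrays centred on the median, 10 with array weights, 8 with the replicate number as a block and 0 when only the compared groups entered the fit, where the list genes had no call either, and it ranged from 1 to 8 with 1 array left out (1 without treated replicate 1, 2 without untreated replicate 2, 7 without untreated replicate 1, 8 without treated replicate 2). Over all genes at day 8, median centring called 7.63% higher and 2.92% lower, array weights 10.7% and 15.1%, and the block 6.95% and 7.2%. The members' count with array weights was thus near the share over all genes. Over all genes at day 6, array weights called 3.35% higher and 3.13% lower, and the block 2.1% and 1.52%. At day 6, with 0 members called, the count was 3 with array weights and 1 with the block. At day 12, with 15 called, it ranged from 10 to 17 with 1 array left out, and no other setting moved it by over 1.5 times. For the change of the treatment difference from day 6 to day 8, array weights called 3.56% of all genes larger and 3.41% smaller. The block called 1.88% and 1.37%. With 0 members called in this step, the count was 4 with array weights, 3 with the block, and 0 to 4 with 1 array left out. For the change from day 8 to day 12, array weights called 8.79% of all genes larger and 7.27% smaller, and the block 5.13% and 4.75%. With level-band centring these shares were 2.53% and 3.02%. With 5 members called in this step, the count was 14 with array weights, 13 with the block and 3 with an intensity trend and robust prior. It was 3 with level-band centring and 1 with the compared groups alone, and it ranged from 2 to 11 with 1 array left out. Without untreated replicate 1 or 2 or treated replicate 3 of day 8, or untreated replicate 2 or treated replicate 3 of day 12, it was 2. Without treated replicate 1 of day 8, untreated replicate 3 of day 12 or treated replicate 1 of day 12 it was 3. In the untreated step from day 4 to day 6, with 26 called, leaving out 1 array gave 13 to 27. The causes of these moves were not tested. The block ended no call at days 8 or 12, and in the steps between days it kept every call and added at most 4. Over all alternatives, the block and the arrays left out included, 2710 values of single collagen genes were recomputed. Of these, 300 lost the call and 0 reversed. A reversal could not occur with the block, the percentile filter, probe set averaging, the intensity trend or the compared groups alone. These settings leave a member's log2 difference unchanged. With 3 arrays a group, differences near the median SE of 0.092 were not detectable.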
